A study of Mus musculus with 4 samples.

Results

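The megabase around Zmiz1 on mouse chromosome 14 held more liver binding sites of estrogen receptor alpha (ESR1) than any other 1-Mb window that starts at a whole Mb, and the fourth most uterus sites. The window was defined as all peaks with a summit from 26000000 to 26999999 on chromosome 14 of the mm9 build, and it held 29 of 6932 liver peaks and 53 of 24836 uterus peaks. It was chosen by its number of peaks in both lists, so its counts and ranks describe the choice and are not tested. The study mapped ESR1 by chromatin immunoprecipitation and sequencing (ChIP-seq) in flash-frozen liver and uterus of C57BL/6 female mice aged 8 weeks, with no treatment of the animals named in the labels. The 4 samples comprised, for each tissue, 1 ESR1 library and 1 input. The labels do not say how many animals stand behind a library. No difference between the tissues can be set against a spread between animals, and tissue and library cannot be told apart.

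ESR1 belongs to the nuclear receptors and, once activated by estrogens, binds DNA as a dimer. Its classical target is the estrogen response element, a palindrome of paired half-sites, and many of its sites lie far from gene starts, where they can act as enhancers. Estrogens act through it on growth of the uterus and on metabolism in the liver. Zmiz1 (gene ID 328365) encodes a zinc-finger protein with a MIZ domain, related to the PIAS family of SUMO ligases and known as a transcriptional co-regulator, among others of the androgen receptor. By the definition of the window, the gene lies at about 26.27 to 26.49 Mb. That interval was not drawn from an mm9 annotation, and exons, introns and start sites were therefore not assigned to peaks. In RefSeq's order of genes on the GRCm38 build, the protein-coding neighbours of Zmiz1 are Rps24, a ribosomal protein gene, on the side before its start, and Gm45915 and Ppif, which encodes a mitochondrial cyclophilin, on the other side. Which of these genes lie inside the mm9 window was not determined.

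The sequence before the start of Zmiz1 is shown because the gene names the window. It is the RefSeq promoter entry on GRCm38, plus strand, 5′ to 3′, limited to the 250 bases before the start. The letters were searched on both strands for the palindromic element, GGTCA and TGACC with any 3 bases between them, and for its half-site GGTCA, which is contained in the palindrome. Neither was found, so no base is in capitals.
Zmiz1, 250 bases before the start: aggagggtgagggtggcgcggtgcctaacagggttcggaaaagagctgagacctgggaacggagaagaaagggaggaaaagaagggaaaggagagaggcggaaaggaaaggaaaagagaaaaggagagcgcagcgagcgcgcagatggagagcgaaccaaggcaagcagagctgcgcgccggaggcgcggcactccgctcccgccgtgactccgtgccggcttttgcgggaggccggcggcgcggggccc
Among 32851 RefSeq promoter entries cut to the same length, 0.0639% held the palindrome and 35.2% held the half-site. The sequence could not be placed on the mm9 peak lists, so whether a peak covers it was not tested.

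The libraries were of similar depth, with 20016495 unique tags in liver and 22298008 in uterus, against controls of 18781348 and 22020520 unique tags. Positions are given in Mb of mm9 at the summit of a peak. Tags are the raw number of sequenced fragment ends in a peak, and 95% intervals of tags are exact Poisson intervals that cover counting error only. Fold enrichment over control and the MACS score (10 times the −log10 of the p-value) are the authors' values per peak and are used to describe or rank peaks within a list.

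The density of the window stood out in both lists. Its 29 liver peaks ranked 1st of 2281 windows holding a peak of either list, and the next 2 windows held 26 each. Its 53 uterus peaks ranked 4th, behind windows with up to 60. On a grid starting 500 kb earlier, the overlapping window from 25.5 to 26.5 Mb held 25 liver peaks and ranked 3rd, and its 52 uterus peaks ranked 5th. The mean window held 3.04 liver and 10.9 uterus peaks. By the sum of both ranks it came first, followed by the windows from 167 to 168 Mb on chromosome 2 (26 liver and 43 uterus peaks), 124 to 125 Mb on chromosome 8 (19 and 50) and 98 to 99 Mb on chromosome 11 (18 and 41).

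**Figure D1:**
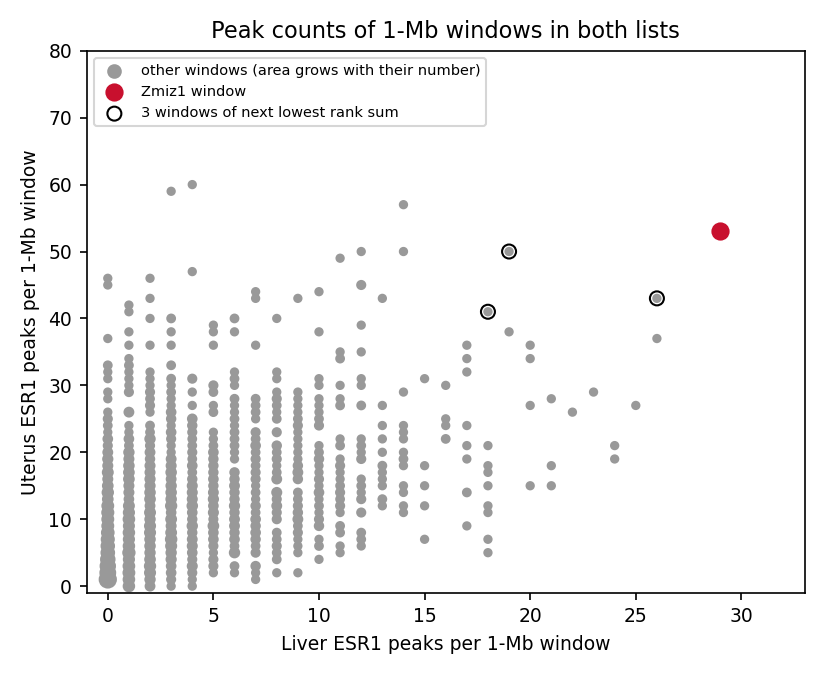
Each point is a 1-Mb window, placed by its number of liver peaks (horizontal axis) and of uterus peaks (vertical axis), with larger grey points where several windows coincide. The Zmiz1 window (red) lies at 29 liver and 53 uterus peaks, to the right of every other window, and the circled points are the 3 windows with the next lowest sum of ranks.

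The edges of the window cut little from the liver cluster. The first liver peak inside lay at 26.001 Mb, only 1.17 kb past the lower edge, with 82 tags, and the last one before that edge lay at 25.306 Mb with 45 tags. Above the window the next liver peak lay at 27.915 Mb with 57 tags. In uterus the first peak inside lay at 26.003 Mb with 40 tags and the last one outside at 25.943 Mb with 41 tags, and the next one above the window lay at 27.354 Mb with 40 tags. The next liver peaks outside thus lay 694 kb below the lower edge and 915 kb above the upper edge. Within the window, no peak of either list lay in the last 374 kb.

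The peaks of the window held more tags than the typical peak of their list. The liver peaks held 20 to 677 tags with a median of 78, against 58 over the whole liver list, and 19 of 29 lay above that list's median. The uterus peaks held 33 to 362 tags with a median of 81, against 55, and 39 of 53 lay above the list's median. Together the liver peaks held 3199 tags, or 160 per 1000000 unique tags (154 to 165), and the uterus peaks 5262 tags, or 236 per 1000000 (230 to 242). The single strongest liver peak supplied 21.2% of the liver tags in the window, and the strongest uterus peak 6.88% of the uterus tags. Median fold enrichment was 13.2 in liver, against 11.2 over the list, but 13.7 in uterus, against 14.7. The peaks were also wider, with a median width of 683 bp in liver (631 over the list) and 667 bp in uterus (579). Per kb of peak the medians were 108 against 88.6 tags in liver and 104 against 91.4 in uterus. In the 3 windows next in rank, on chromosomes 2, 8 and 11, median liver widths were 657.5, 674 and 619 bp. Their median uterus widths were 630, 743 and 625 bp. Median tags per kb there were 93.8, 83.8 and 96.2 in liver and 115, 107 and 102 in uterus. Median fold enrichment there was 12.4, 12.5 and 13.6 in liver and 17.5, 16.1 and 13.2 in uterus.

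Most sites of the window were found in a single tissue. With an overlap of at least 1 bp counted as shared, 10 liver peaks overlapped 10 uterus peaks. These were 34.5% of the liver peaks (Wilson interval 19.9 to 52.7), beside 23.7% over the whole liver list. They were 18.9% of the uterus peaks (10.6 to 31.4), beside 6.58% over the whole uterus list. The other 19 liver and 43 uterus peaks had no called partner and are named liver-only and uterus-only, which says nothing of signal under the threshold. The intervals cover counting error only and take neighbouring peaks as independent, so they are no test against the lists. The number of peaks in the window, by which it was chosen, also bears on these shares.

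Windows dense in both tissues had shares of the same order. Over the 77 other windows with at least 10 liver and 20 uterus peaks, a threshold set after the data were seen, 28.1% of 1083 liver peaks and 13.0% of 2313 uterus peaks were shared. Of these windows, 25 had a liver share and 15 a uterus share at least as high as the Zmiz1 window. In the 3 windows next in rank, 6 of 26, 7 of 19 and 8 of 18 liver peaks were shared on chromosomes 2, 8 and 11, and 5 of 43, 7 of 50 and 7 of 41 uterus peaks. These shares were not tested against that of the Zmiz1 window.

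The liver and uterus sites were laid out differently along the window. Summits of both lists, read in order, fell into 6 runs when a gap of more than 25 kb ended a run, a distance chosen after the positions were seen. Liver sites were concentrated in the fifth run, from 26.271 to 26.409 Mb. This run held 21 of 29 liver peaks and 16 of 53 uterus peaks, or 72.4% against 30.2%. It held 87.0% of the liver tags and 25.7% of the uterus tags of the window. These 37 peaks were also all the peaks inside the approximate interval of Zmiz1, in which no peak lay beyond 26.409 Mb. Without the strongest shared pair the run still held 83.5% of the liver and 20.7% of the uterus tags. When only a gap of over 35 kb ended a run, the third, the fourth and the fifth run joined, from 26.124 to 26.409 Mb, and held 22 liver and 27 uterus peaks, or 75.9% and 50.9%.

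**Figure D2:**
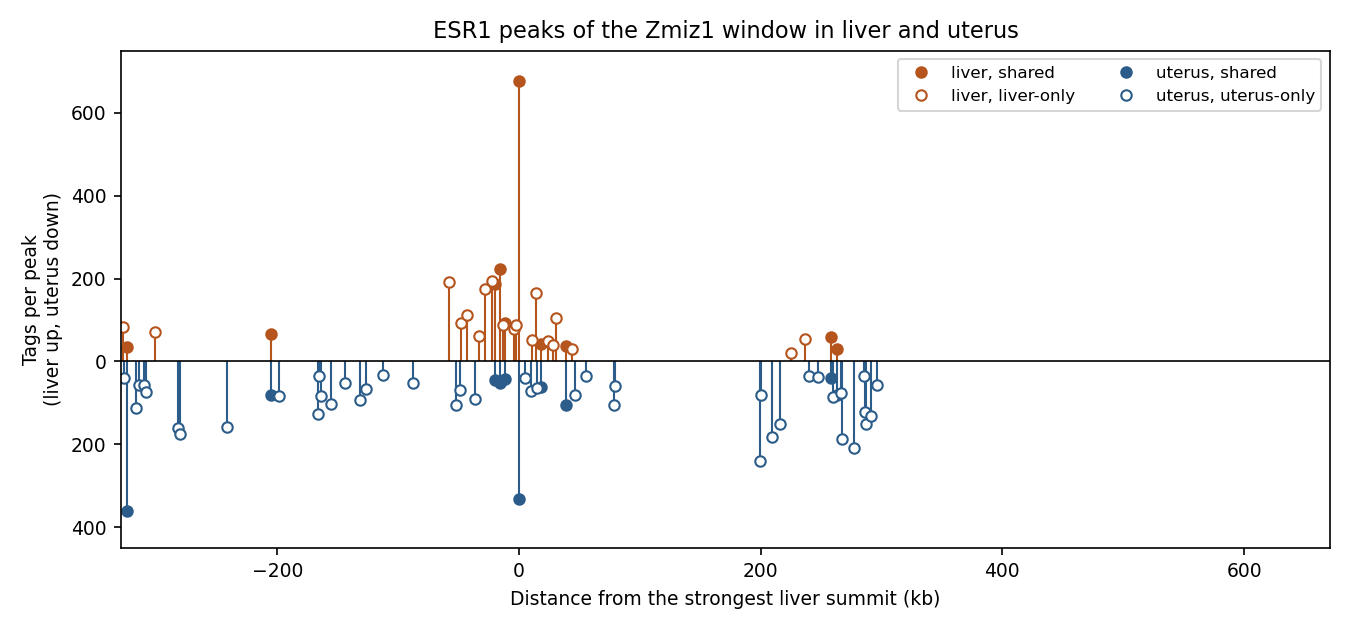
Each line is a peak, placed by the distance of its summit from the strongest liver summit (horizontal axis, kb), with liver tags upwards and uterus tags downwards (vertical axis). Filled points are shared peaks and open points single-tissue peaks. Liver peaks crowd around 0, uterus peaks stand in groups on both sides, and the right-hand part is empty in both.

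The first run, from 26.001 to 26.048 Mb, held 3 liver and 8 uterus peaks. Its liver-only peaks lay at 26.001 Mb (82 tags) and 26.028 Mb (71 tags). Its uterus-only peaks lay at 26.003 Mb (40 tags), 26.012 Mb (112), 26.015 Mb (58), 26.019 Mb (56), 26.020 Mb (75), 26.047 Mb (161) and 26.048 Mb (176). Between them, at 26.005 Mb, stood a shared pair that was unlike in its tag counts. The uterus peak held 362 tags, the most of the uterus peaks in the window, and the liver peak held 34, which ranked 6378th of the 6932 liver peaks.

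The next stretch belonged almost wholly to uterus. A lone uterus-only peak at 26.088 Mb formed the second run, with 158 tags at 32.3-fold. The third run held a shared pair at 26.124 Mb, with 66 liver and 82 uterus tags, and a uterus-only peak at 26.130 Mb with 83 tags. The fourth run, from 26.163 to 26.241 Mb, held 9 uterus-only peaks and no liver peak. Their tags, in order of position, were 126, 34, 83, 103, 51, 94, 67, 33 and 52. From 26.130 to 26.241 Mb, 10 uterus summits followed each other over 111 kb without a liver summit between them, the most in a row in the window. The uterus-only peak farthest from a liver summit lay here, at 26.198 Mb and 73.3 kb away.

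The fifth run was the core of the liver sites. Its 21 liver peaks lay within 101 kb, from 26.271 to 26.373 Mb, with a median gap of 4.47 kb and a largest gap of 11.1 kb between neighbouring liver summits. Within the same stretch lay 12 uterus summits. In order of position the first 9 liver peaks lay at 26.271 Mb (192 tags), 26.281 Mb (92), 26.286 Mb (111), 26.296 Mb (62), 26.301 Mb (176), 26.307 Mb (193), 26.309 Mb (187), 26.314 Mb (222) and 26.316 Mb (88). The peaks at 26.309 and 26.314 Mb were shared and the other 7 were liver-only. They led up to the strongest site through a shared peak at 26.317 Mb (92 tags) and liver-only peaks at 26.325 Mb (78) and 26.326 Mb (88). The strongest liver peak, at 26.329 Mb, held 677 tags, the third most in the liver list. Beyond it the counts were lower, at 26.340 Mb (52 tags), 26.343 Mb (166), 26.347 Mb (43), 26.353 Mb (49), 26.357 Mb (40), 26.360 Mb (105), 26.368 Mb (38) and 26.373 Mb (31). Of these, the peaks at 26.347 and 26.368 Mb were shared.

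The uterus peaks of the fifth run reached farther than its liver peaks, to 26.409 Mb. Their median was 66 tags, against 81 over the window's and 55 over all uterus peaks. The uterus-only peaks lay at 26.277 Mb (104 tags), 26.280 Mb (69), 26.293 Mb (91), 26.335 Mb (39), 26.339 Mb (71), 26.344 Mb (63), 26.376 Mb (81), 26.385 Mb (36), 26.408 Mb (104) and 26.409 Mb (59). None of these 10 reached the 149 tags that mark the highest 10% of the uterus list. That mark was reached by 2511 of all 24836 uterus peaks, so none among 10 is close to the share over the list. In liver all 8 of the window's peaks with at least 111 tags, the mark of the highest 10% of that list, lay in this run. In uterus only 1 of the window's 11 peaks of the highest 10% lay in it, the partner of the strongest liver peak, while 6 lay in the sixth run, 3 in the first and 1 in the second.

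**Figure D3:**
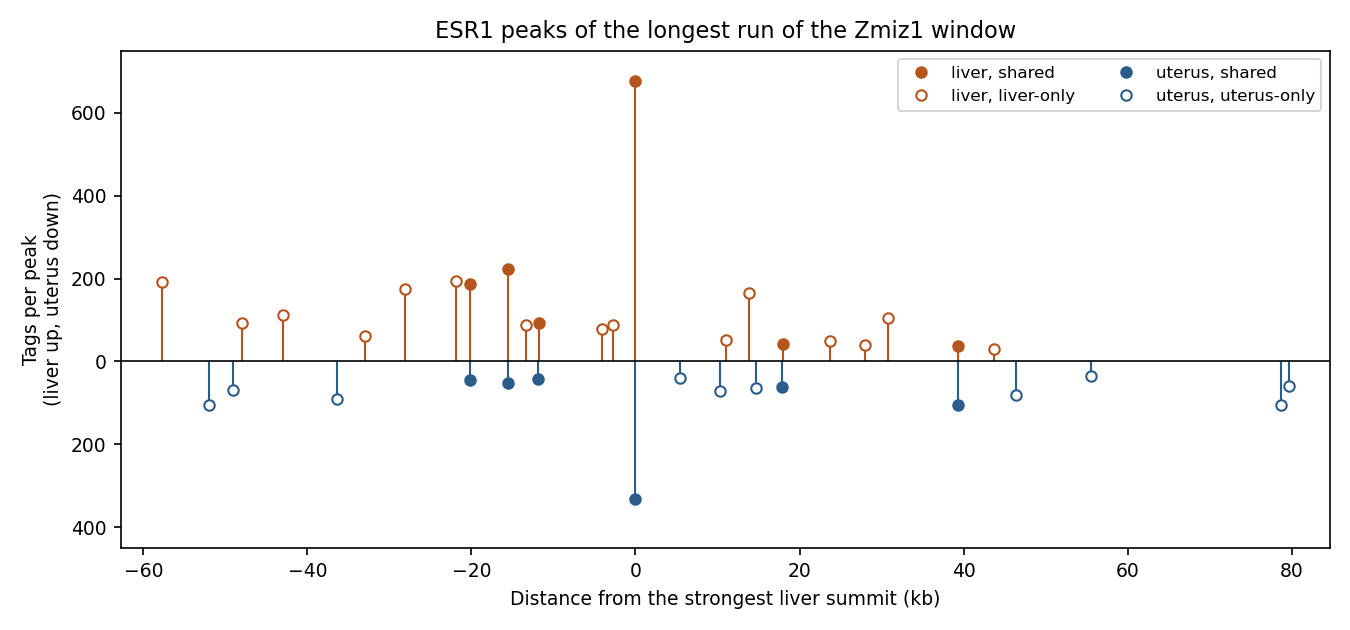
The fifth run at larger scale, with the same axes and symbols as the map of the whole window. Around the strongest shared site, with 677 liver and 333 uterus tags, the liver-only peaks reach up to 193 tags and the uterus-only peaks up to 104.

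After a gap of 120 kb with no peak of either list came the sixth run, from 26.529 to 26.626 Mb. It held the most uterus peaks and tags of the 6 runs, 17 peaks with 1902 tags, or 36.1% of the window's uterus tags. Its uterus median of 87 tags was below the 93.5 of the first run. In liver it held 4 peaks with 164 tags, 5.13% of the liver tags. The uterus-only peaks lay at 26.529 Mb (240 tags), 26.530 Mb (80), 26.538 Mb (182), 26.545 Mb (152), 26.569 Mb (34), 26.577 Mb (37) and 26.589 Mb (87). They went on at 26.595 Mb (76 tags), 26.596 Mb (187), 26.607 Mb (210), 26.614 Mb (35), 26.615 Mb (122), 26.616 Mb (150), 26.620 Mb (132) and 26.626 Mb (56). The liver-only peaks lay at 26.554 Mb (20 tags), the fewest in the window, and 26.565 Mb (55). The shared pairs lay at 26.587 Mb, with 59 liver and 40 uterus tags, and at 26.593 Mb, with 30 liver and 82 uterus tags. The 8 uterus summits from 26.595 to 26.626 Mb followed each other over 30.3 kb with no liver summit among them.

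**Figure D4:**
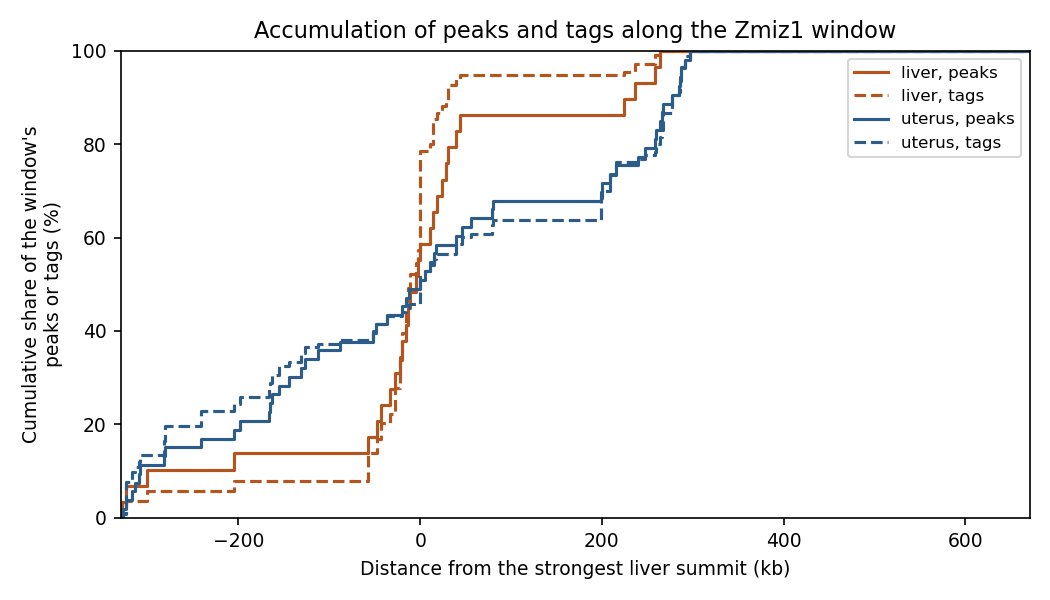
The share of the window's peaks (solid) and tags (dashed) reached at each distance from the strongest liver summit (horizontal axis, kb), for liver and uterus (vertical axis, %). The liver curves rise steeply around 0, where the fifth run holds 72.4% of the peaks, and the uterus curves climb in steps across all runs.

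The shared pairs coincided closely in position. Summits of a pair lay 1 to 199 bp apart with a median of 49 bp, beside 38 bp over all 1651 pairs of the lists, and 5 of the 10 pairs lay within 50 bp, beside 57.4% of all pairs. The pairs at 26.329 and 26.593 Mb had summits 1 bp apart, and the pair at 26.005 Mb 14 bp apart. The widest distances were 157 bp at 26.317 Mb and 199 bp at 26.587 Mb. In every pair the overlap covered at least 81.5% of the shorter peak. All 10 pairs thus met a rule of at least 50% overlap. They also met a rule of summits within 200 bp, the pair at 26.587 Mb only narrowly. Fewer pairs were left under thresholds on score or fold enrichment, given below. With at least 50% of the shorter peak required, 23.1% of all liver and 6.41% of all uterus peaks were shared, and with summits within 200 bp, 19.2% and 5.37%.

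Raw tags at the shared pairs were higher in liver at some pairs and in uterus at others. The leading pair was strong in both lists. Its liver peak (26327601 to 26329930) held 677 tags (627 to 730) at 66.5-fold, and its uterus peak (26328687 to 26329648) held 333 (298 to 371) at 83.4-fold. It ranked 17th by fold enrichment among all liver peaks and 315th among all uterus peaks. The liver peak was 2330 bp wide and the uterus peak 962 bp.

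A group of 3 pairs next to it held more raw tags in liver than in uterus. At 26.314 Mb the liver peak (26313051 to 26314074) held 222 tags (194 to 253), the 94th highest of its list, and the uterus peak (26313346 to 26313960) 52 tags (38.8 to 68.2). At 26.309 Mb the counts were 187 tags (161 to 216) in liver and 44 (31.97 to 59.1) in uterus. At 26.317 Mb they were 92 (74.2 to 113) and 43 (31.1 to 57.9). The intervals of liver and uterus did not overlap in these 3 pairs, but the liver peaks were wider. Per kb of peak the values were 217 tags in liver and 84.6 in uterus at 26.314 Mb. They were 231 and 76.4 at 26.309 Mb, and 108 and 90.5, much closer together, at 26.317 Mb.

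In 3 other pairs the uterus peak held more tags, and in the last 3 the intervals overlapped. At 26.005 Mb the uterus peak (26004932 to 26006459) held 362 tags (326 to 401) at 72.1-fold and the liver peak (26005042 to 26005525) 34 tags (23.5 to 47.5) at 11.8-fold. At 26.368 Mb the liver peak held 38 tags (26.9 to 52.2) and the uterus peak 104 (85.0 to 126). At 26.593 Mb the counts were 30 (20.2 to 42.8) and 82 (65.2 to 102). The uterus peaks of these 3 pairs were wider. Per kb of peak the values were 70.2 tags in liver and 237 in uterus at 26.005 Mb. They were 65.9 and 117 at 26.593 Mb, and 95.5 and 111, closer together, at 26.368 Mb. There the deposited fold enrichment was 16.95 in liver and 9.32 in uterus, each against its own control. The intervals of the tissues overlapped at 26.124 Mb, at 26.347 Mb (43 liver and 61 uterus tags) and at 26.587 Mb. Scaled to unique tags, 5 pairs were higher in liver and 5 in uterus. Across the 10 pairs Spearman's rho of the tags was -0.29, and it was -0.64 over the 9 pairs without the strongest, beside 0.24 over all 1651 pairs. These are descriptions of neighbouring sites from 1 library each, and the peaks of a pair differ in width.

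**Figure D5:**
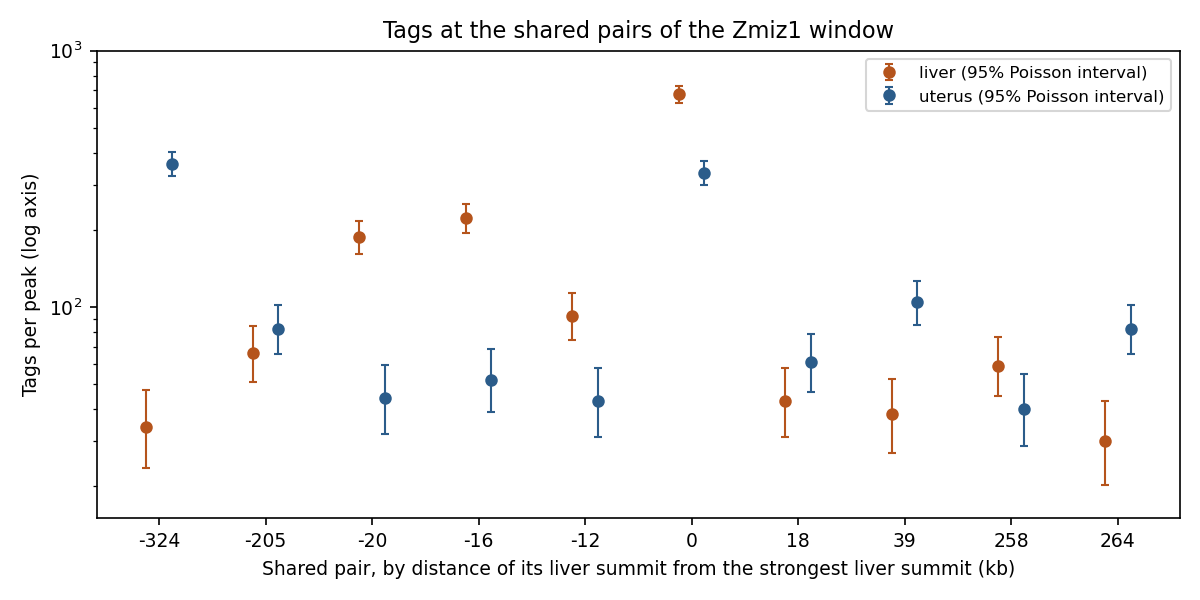
Tags at the 10 shared pairs (vertical log axis) in liver and uterus, with exact 95% Poisson intervals as bars, ordered by the distance of the liver summit from the strongest liver summit (horizontal axis, kb). The pairs 20, 16 and 12 kb before the strongest have more raw tags in liver, and the pair 324 kb before it has 362 uterus and 34 liver tags. Tags are not scaled to the width of a peak.

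A smaller share of peaks was shared when a higher score was required, in the window and over the whole lists. A MACS score of at least 200 was reached by 15 of 29 liver peaks, 14 of them in the fifth run. It was reached by 36 of 53 uterus peaks, 10 of them in that run. Over the whole lists, 2827 of 6932 liver and 13382 of 24836 uterus peaks reached this score. Only the pair at 26.329 Mb passed in both lists. It made up 6.67% of the 15 liver peaks (1.19 to 29.8), beside 19.4% over the whole lists at the same score. In uterus it made up 2.78% of the 36 peaks (0.492 to 14.2), beside 4.10%. Both intervals held the share over the lists, and they are no test. Among the 15 liver peaks, 4 had a uterus partner at the authors' threshold, and 6 of the 36 uterus peaks had a liver partner. The matching shares over the whole lists were not computed, so these counts cannot be read as high or low. When peaks of both lists had to be enriched at least 10-fold, 5 pairs were left, or 20.8% of the liver and 12.5% of the uterus peaks that passed, beside 18.1% and 3.93% over the lists.

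By median tags, shared peaks held fewer tags than single-tissue peaks at the authors' threshold. The median was 62.5 tags at shared and 82 at liver-only peaks, and 71.5 at shared and 81 at uterus-only peaks. Over the whole lists shared peaks held more, with a median of 68 tags in liver (55 at liver-only peaks) and 72 in uterus (54 at uterus-only peaks). The window's ranges overlapped widely, at 30 to 677 against 20 to 193 tags in liver and 40 to 362 against 33 to 240 in uterus. Inside the fifth run the liver order was the opposite, with a median of 140 tags at the 6 shared and 88 at the 15 liver-only peaks, while in uterus the medians were 56.5 at the 6 shared and 70 at the 10 uterus-only peaks. The direction in liver also turned, to a difference of 14 tags, when peaks up to 1000 bp apart counted as shared. At a MACS score of at least 200 it turned in both tissues, to differences of 569 tags in liver and 230 in uterus, with 1 shared pair left. By median fold enrichment shared liver peaks were higher, at 14.5 against 13.2, and shared uterus peaks lower, at 11.0 against 14.0.

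The strongest single-tissue sites were of the same order of tags in both lists. The 6 liver-only peaks with the most tags all lay in the fifth run, led by 26306795 to 26308031 (193 tags, 167 to 222, at 21.3-fold) and 26270499 to 26272013 (192 tags, 166 to 221, at 13.1-fold). They were followed by 26300531 to 26301362 (176 tags, 32.2-fold), 26342569 to 26343456 (166 tags, 29.0-fold), 26285661 to 26286445 (111 tags, 23.7-fold) and 26359557 to 26360210 (105 tags, 14.8-fold). These 6 ranked 134th to 800th of the liver list. The 6 uterus-only peaks with the most tags lay in the sixth and the first run, led by 26527763 to 26528861 (240 tags, 211 to 272, at 31.2-fold) and 26606198 to 26607514 (210 tags, 183 to 240, at 35.8-fold). They were followed by 26595795 to 26596640 (187 tags, 47.8-fold), 26537837 to 26538649 (182 tags, 30.5-fold), 26047894 to 26048657 (176 tags, 27.2-fold) and 26045611 to 26047378 (161 tags, 10.8-fold). These ranked 974th to 2133rd of the uterus list.

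Single-tissue sites often lay beside a site of the other tissue without overlapping it. Of 19 liver-only summits, 18 had a uterus summit within 10 kb, beside 27.8% over all liver-only peaks, and the median distance was 3.82 kb, beside 24.1 kb. Of 43 uterus-only summits, 18 had a liver summit within 10 kb, beside 7.97% over all uterus-only peaks, and the median distance was 15.5 kb, beside 149 kb. These distances move with the density by which the window was chosen, and its part in them was not tested. The closest case was at 26.343 Mb, where the liver-only peak (166 tags) ended 8 bp before a uterus-only peak (63 tags) began, with summits 770 bp apart. At 26.340 Mb a liver-only peak of 52 tags and a uterus-only peak of 71 tags were 131 bp apart edge to edge, with summits at 806 bp. At 26.281 Mb a liver-only peak of 92 tags lay 312 bp from a uterus-only peak of 69 tags. With peaks up to 1000 bp apart counted as shared, 16 liver and 15 uterus peaks had a partner, or 55.2% and 28.3%, beside 27.6% and 7.74% over the lists.

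Spacing was close in both lists. The median distance between neighbouring summits was 5.20 kb in liver and 6.34 kb in uterus, beside 56.9 and 28.9 kb over the whole lists. Of 28 liver gaps, 21 were at most 10 kb, and of 52 uterus gaps, 34. Over the whole lists, 24.4% of liver and 29.6% of uterus gaps were at most 10 kb. In the 3 windows next in rank the liver median distance was 14.3, 14.9 and 16.6 kb on chromosomes 2, 8 and 11, and the uterus median 7.65, 10.1 and 8.00 kb. Liver gaps of at most 10 kb there were 11 of 25, 8 of 18 and 7 of 17. Uterus gaps of at most 10 kb there were 23 of 42, 24 of 49 and 24 of 40. The liver peaks of the Zmiz1 window were thus closer together than in those 3 windows, while the largest liver gap inside the window, 181 kb, was of their order (149, 224 and 160 kb). Median liver tags in the 3 windows were 57.5, 59 and 59, below the 78 of the Zmiz1 window, and median uterus tags were 75, 83.5 and 70, around its 81. Spacing partly follows from the number of peaks, which chose the window, and no test was made.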

How the data were processed

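The peak lists of 1 liver and 1 uterus ESR1 library were used. The inputs were used only by the authors, as controls in peak calling. Peaks were called with MACS 1.3.7.1 on mm9, per the submitters' processing notes. Each library was called alone against 1 control tag set, per the file headers, with tags of 50 bp, a p cutoff of 1e-10 and a local background from the peak region and 1000, 5000 and 10000 bp around it. The alignment step is not described in the labels or headers.

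The deposited tags are raw whole-number counts per peak with no scaling. Fold enrichment, as deposited, is a ratio of ChIP signal to local background. The score deposited by MACS equals −log10 of the p-value multiplied by 10. The deposited false discovery rate, a percent, was not used. A summit is start plus offset minus 1, with coordinates taken as 1-based.

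The members and lists were chosen with earlier results of these data known. Full values are given for each shared pair and for the 6 liver-only and 6 uterus-only peaks with the most tags. No test was made: each tissue has 1 library and peaks are not replicates. Wilson intervals of shares and Poisson intervals of tags are at 95%. The overlap rules were tested on simulated data. Alternatives were other overlap rules, thresholds, window edges and denominators. Promoter sequences were those of RefSeq on GRCm38, and no mm9 genome or annotation was used. Values were computed in Python 3.11.15 with scipy 1.17.1, pandas 2.3.3 and numpy 2.4.6, and drawn with matplotlib 3.10.9.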

Additional observations from a re-analysis of the deposited data

Results flagged for a closer look

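Within the window, shared liver peaks had a median fold enrichment of 14.5 against 13.2 at liver-only peaks, a difference of 1.3. Shared uterus peaks had a median of 11.0 against 14.0 at uterus-only peaks, a difference of -3.0. The same contrast thus went in opposite directions in the tissues, as over the whole lists (0.97 and -2.42). In the 3 windows next in rank, on chromosomes 2, 8 and 11, the liver differences were -1.03, 3.045 and 4.35. The uterus differences there were 9.91, -1.18 and 9.895, so only the window on chromosome 8 had the directions of the Zmiz1 window. The difference between the tissues was not tested, since each has 1 library.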

How the results depend on the processing

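No paired analysis was possible because each tissue has 1 library. Of 52 alternatives tried for 16 results, 32 were labelled as unchanged, 17 as moved and 3 as turned in direction. These labels did not follow a common size of change. A liver share of 20.8% against 34.5%, and 36 uterus peaks against 53, were labelled as unchanged. Liver tags of 151 against 160 per 1000000 were labelled as moved. Limiting the lists to a score of at least 200 left 15 liver peaks, shares shared of 6.67% and 2.78%, and 127 and 203 tags per 1000000 unique tags. The median tags of shared minus single-tissue peaks were then 569 in liver and 230 in uterus, against -19.5 and -9.5, with 1 shared pair left. With peaks up to 1000 bp apart the liver difference was 14 and the liver share 55.2%. At a fold enrichment of at least 10 the differences were -45 and -1, and without the strongest pair the uterus difference was -20. A window shifted to the right by 500 kb held 4 liver and 18 uterus peaks. With windows starting 500 kb earlier the liver rank was 3, for 25 peaks. Scaling to total tags gave 151 and 222 per 1000000. Counting neighbours of either list gave a median spacing of 4.09 kb. The fifth run held 93.3% of the liver peaks at a score of at least 200, and the longest run 50.9% of the uterus peaks with a gap of 35 kb. The last 2 alternatives, tags per kb and the removal of the strongest pair were chosen after seeing the data. The causes of these changes were not tested.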
